A study of Mus musculus with 4 samples.

Results

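The genes that encode the subunits of RNA polymerases I, II and III, the general transcription factors (GTFs) of RNA polymerase II and the TATA-binding protein-associated factors (TAFs) were examined in mouse oocytes during meiotic maturation. Members were chosen by symbol from the mouse gene names of the table (symbols that begin with *Polr1*, *Polr2* or *Polr3* and a letter, with *Gtf2*, or with *Taf* and a number, plus *Znrd1*). They were 67 of 21957 genes. The rule uses symbols and no measured value, but it was set with earlier results of these data known. *Znrd1*, added by name, is among the RNA polymerase genes that the study lists as decreased in treated oocytes. Of these, 64 reached 1 FPKM (a fragment count scaled to transcript length and to library depth) in at least 1 of 4 libraries, as did 10898 genes in all, and these are the genes compared here. *Gtf2i* (0.729 FPKM at its highest), *Gtf2ird2* (0.226 FPKM) and *Taf7l* (0.0702 FPKM) stayed below that minimum, and *Taf1c* (1.31 FPKM) and *Polr1b* (2.14 FPKM) were the members closest above it.

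Oocytes came from B6D2F1 (C57BL/6 x DBA) female mice of 6 to 8 weeks of age that had been primed with gonadotropin, and were freed of cumulus cells. One group was taken at the germinal vesicle stage (GV, not cultured), and the others were cultured in M16 medium for 12 h without drug (MII) or with tubastatin A, an inhibitor of the deacetylase HDAC6, at 10 μM (TubA-10) or 20 μM (TubA-20). MII oocytes were kept only if they had extruded a polar body, so MII is a selected group, and no such selection is described for the treated oocytes. Each condition was 1 library from a pool of 100 oocytes per the study's methods, although the series title speaks of single cells. With 1 library per condition, no difference below has a replicate check or a p-value, and a change is called here only where the ratio of FPKM + 1 was past 2-fold. The titles and descriptions give 10 and 20 μM for the treated samples, whereas the treatment field has 20 μM against TubA-10 and 11 μM against TubA-20. Samples were grouped by their descriptions.

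RNA polymerase I transcribes ribosomal RNA genes, RNA polymerase II messenger RNAs and RNA polymerase III transfer RNAs, 5S ribosomal RNA and other short RNAs. The enzymes share a set of small common subunits, and RNA polymerase II starts transcription with the GTFs, of which TFIID consists of the TATA-binding protein and the TAFs. Fully grown oocytes silence transcription before meiosis resumes, and maturation then proceeds on stored messenger RNAs whose stability and poly(A) tail length change.

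The summed FPKM was 568331 to 627340 per library, and with GV set to 1 the relative depth, read from the step between low values, was 0.901 for TubA-20, 1.61 for MII and 1.71 for TubA-10. All 10 oocyte markers were above 1 FPKM in every library, but in TubA-20 4 of them were past 2-fold lower than in GV (*Zp2* −1.36, *Zp3* −1.33, *Padi6* −1.25 and *Zp1* −1.08), 1 was higher (*Gdf9*, 1.11), and 3 were lower than in MII. The summed level of 12 cumulus and granulosa cell markers was 21.7 to 26.4 FPKM, with *Foxl2* at 0 throughout. Of 6 tested, *Inha* was past 2-fold lower than in GV in every cultured library. It was at 7.5 FPKM in GV, 0.31 in TubA-10, 0.239 in TubA-20 and 0.314 in MII. In TubA-20 against GV, *Ptx3* (0 and 1.19 FPKM) and *Tnfaip6* (0 and 1.57 FPKM) were past 2-fold higher. The part of either marker list in the results was not tested. The median of the genes at 1 FPKM or more in all libraries was 0.13 (MII), 0.14 (TubA-10) and 0.19 (TubA-20) above GV on the log2 scale. Since poly(A) RNA was selected with oligo(dT), a change in RNA amount and a change in poly(A) tail length cannot be told apart, and neither can fewer intact oocytes in a pool and less RNA per oocyte.

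Levels within each enzyme were uneven, and for RNA polymerases I and II the lowest subunit was the same in all libraries. FPKM is scaled to transcript length, but differences between genes in poly(A) tail length and in capture by oligo(dT) are not corrected. The order of genes within a library is therefore a description of FPKM only. Among the 12 subunits of RNA polymerase II, *Polr2a*, which encodes the catalytic largest subunit, was lowest in every library (3.01 FPKM in GV, 3.02 in TubA-10, 4.72 in TubA-20 and 3.37 in MII). *Polr2d* (1143 FPKM in GV and 1429 in TubA-10) and *Polr2j* (1550 FPKM in TubA-20 and 1325 in MII) were the highest. Among the 11 subunits of RNA polymerase I that the symbols take in, *Polr1b*, its second-largest subunit, was lowest in every library (2.14 FPKM in GV, 0.955 in TubA-10, 0.456 in TubA-20 and 0.818 in MII). The median over the RNA polymerase II subunits was 314 FPKM in GV, 135 in TubA-10, 85.6 in MII and 58 in TubA-20, whereas the median over 14 TFIID TAFs was 26.4 FPKM in GV, 39.9 in TubA-10, 42.5 in MII and 49.6 in TubA-20. The RNA polymerase II median thus stood highest in GV and lowest in TubA-20, and the TFIID median the other way round. The sum over the same 12 subunits, which a few abundant transcripts make up, moved less and was lowest in MII (4811 FPKM in GV, 4384 in TubA-10, 3788 in MII and 4212 in TubA-20), and the median of their log2 changes in TubA-20 against GV was −0.54. The median over the RNA polymerase III subunits that the symbols take in was also lowest in MII (13.9 FPKM, with 16 in TubA-20).

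The first comparison asks how these transcripts differ between GV and MII, the course of maturation without drug. Past 2-fold, 9 of 64 members were lower and 4 higher in MII, where the background over all genes tested was 16.8% lower and 6.14% higher. The members' median log2 change was 0.12, against 0.04 for all genes, and it turned to −0.04 when genes under 1 FPKM were kept. By class, the 4 subunits particular to RNA polymerase I among the members had a median of −1.32 and the 7 shared subunits −0.91, both below 0 under every scaling tried. The first value rests on the symbols chosen: *Twistnb* and *Cd3eap*, which also encode subunits of RNA polymerase I, stood above GV within 2-fold (0.65 and 0.58), and with them the median of 6 was −0.33. The subunits of RNA polymerase II alone (median −0.07) and of RNA polymerase III alone (−0.15) did not keep a sign: scaling to equal *Gapdh* gave 0.13 and 0.04. The latter leave out *Crcp*, a RNA polymerase III subunit outside the symbol rule, which was past 2-fold lower in MII (−1.09). GTFs had a median of 0.30 and TFIID TAFs of 0.65.

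The falls were led by small subunits that hold zinc ribbons or zinc-binding folds. *Znrd1* (chr17:36954356-36958559, minus strand, GRCm38) encodes a 123-residue subunit of RNA polymerase I, related to a subunit of RNA polymerase II. It was at 213 FPKM in GV, 75.3 in TubA-10, 8.1 in TubA-20 and 32.6 in MII. GV was far above the other libraries and TubA-20 far below them. Against GV, MII differed by −2.67 on the log2 scale, TubA-10 by −1.49 and TubA-20 by −4.56, the last a 23.5-fold fall and the 5th lowest of the 10898 genes. *Polr2k* (chr15:36174010-36177010, plus strand), the 58-residue subunit common to all 3 polymerases, had the same order of libraries: 337 FPKM in GV, 124 in TubA-10, 64.8 in MII and 23.8 in TubA-20. On the log2 scale MII stood at −2.36 relative to GV, TubA-10 at −1.43 and TubA-20 at −3.77. The annotation lists a processed pseudogene of *Polr2k*, which has no row in the table, and how reads matching both were assigned is not given in the sources used here.

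*Polr2i* (chr7:30231948-30233390, plus strand), the RNA polymerase II subunit related to *Znrd1*, was at 591 FPKM in GV, 146 in TubA-10, 106 in MII and 83.3 in TubA-20. All 3 cultured libraries were low, with log2 changes of −2.46 (MII), −2.01 (TubA-10) and −2.81 (TubA-20) from GV. *Polr3k*, the counterpart in RNA polymerase III, went from 42.2 FPKM in GV to 31.7 in TubA-10, 25.5 in MII and 18.5 in TubA-20, and passed 2-fold only in TubA-20 (−1.14). The sum of these 3 related transcripts was 847 FPKM in GV, 253 in TubA-10, 164 in MII and 110 in TubA-20. The common subunit *Polr2e* (chr10:80035949-80039795, minus strand) was at 165 FPKM in GV, 67.1 in TubA-10, 42.5 in MII and 29.2 in TubA-20, with log2 changes of −1.93, −1.28 and −2.46 in MII, TubA-10 and TubA-20.

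The other members past 2-fold lower in MII were *Polr1e*, a subunit of RNA polymerase I, *Polr3a*, the catalytic largest subunit of RNA polymerase III, *Gtf2f1*, the large subunit of TFIIF, and *Taf5l* and *Taf6l*, which belong to the SAGA coactivator rather than to TFIID. In the order GV, TubA-10, TubA-20 and MII, *Polr1e* was at 20.8, 7.97, 5.03 and 5.09 FPKM and *Polr3a* at 43.7, 22.3, 16 and 17 FPKM. In that order *Taf5l* was at 8.83, 5.73, 1.48 and 2.87 FPKM and *Taf6l* at 63.3, 45.7, 20.1 and 21.3 FPKM. *Gtf2f1* was at 132, 46.2, 51 and 58.6 FPKM. GV was the highest library for all 5 genes. *Gtf2f1* fell in each cultured library, with log2 changes from GV of −1.15 (MII), −1.49 (TubA-10) and −1.35 (TubA-20), whereas its partner *Gtf2f2* was within 2-fold (−0.58, −0.52 and −0.34).

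The rises were fewer. *Gtf2a1* (chr12:91555262-91590487, minus strand), which encodes the precursor of the large TFIIA subunits, was at 17.7 FPKM in GV, 36.8 in TubA-10, 64.4 in TubA-20 and 68.9 in MII. GV was lowest and TubA-10 lay between it and the other pair. Its log2 change of 1.90 in MII was the 12th highest of the genes tested. *Polr3gl*, one of the alternative forms of a RNA polymerase III subunit, rose past 2-fold in MII (4.98 FPKM, log2 change 1.64) from 0.919 FPKM in GV, and was at 2.62 FPKM in TubA-20 and 2.08 in TubA-10. The paralogue *Polr3g* had 4.41 FPKM in GV and 8.24 in MII, within 2-fold (0.77). *Taf4* (chr2:179912152-179976646, minus strand), a core TFIID subunit, rose from 22.8 to 48.5 FPKM (1.06), and *Taf15*, an RNA-binding protein of the FET family, from 5.23 to 11.8 FPKM (1.03), with 7.99 in TubA-10 and 9.36 in TubA-20. Both were within 2-fold when the median gene was set to 0 (0.93 and 0.91), and the 4 higher members became 2 under that scaling and 8 under equal *Gapdh*.

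**Figure D1:**
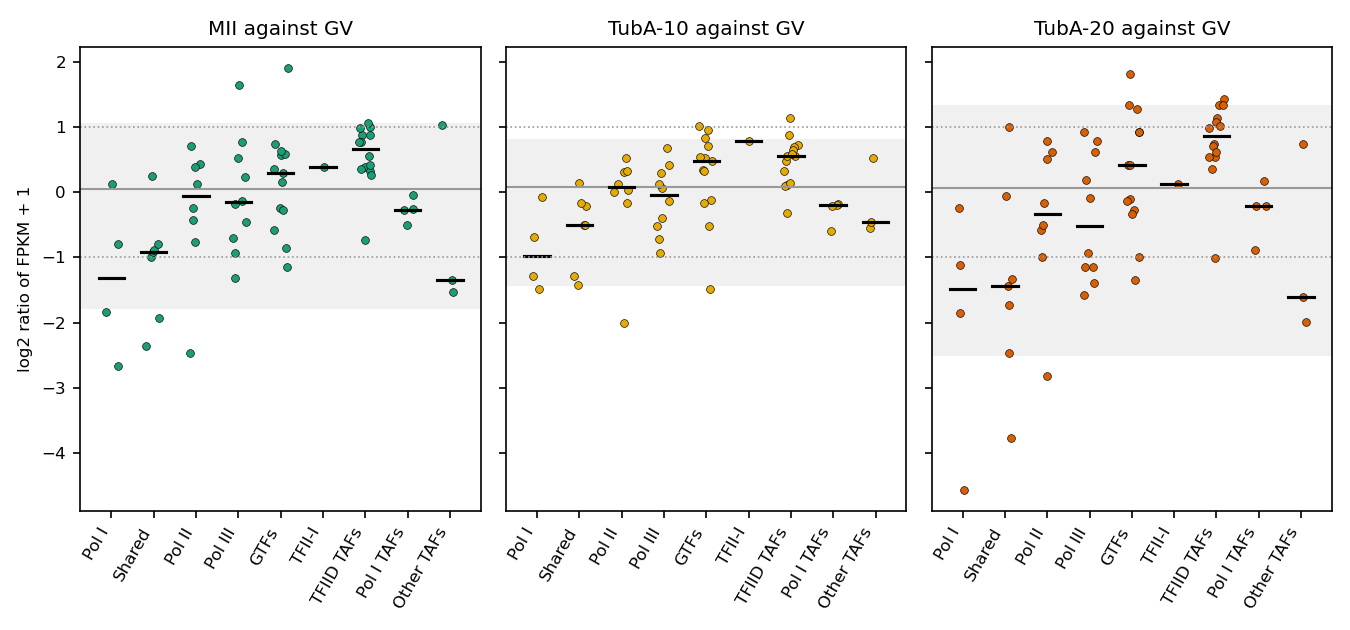
log2 ratio of FPKM + 1 to GV in MII, TubA-10 and TubA-20 for each gene (points), by class, with class medians (black bars), the median of all genes tested (grey line), their 5th to 95th percentile (grey band) and the 2-fold limits (dotted). In TubA-20 the RNA polymerase I median lies at −1.48 and the shared-subunit median at −1.44, and the TFIID TAF median at 0.86.

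The second comparison asks how far oocytes cultured with TubA moved from GV. In TubA-10, 6 members were lower and 2 higher past 2-fold, where the background was 11.3% lower and 1.5% higher. The members' median was 0.11, against 0.08 for all genes, and turned to −0.03 with the median gene set to 0, which also left no member past 2-fold higher. The 6 were *Polr1e*, *Znrd1*, *Polr2e*, *Polr2k*, *Polr2i* and *Gtf2f1*. The 2 were *Gtf2a1* (log2 change 1.02) and *Taf9* (1.14). *Taf9* shares exons on the same strand with *Ak6* over 1564 bases, so its values are uncertain.

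In TubA-20, 18 members fell and 9 rose past 2-fold from GV, where the background was 23.6% lower and 15.3% higher. The members' median was −0.08, against 0.07 for all genes. Of 29 polymerase subunits, 14 (48.3%) were lower and 0 higher, and their median was −0.94. Here and throughout, the 29 and the class of RNA polymerase II alone count *Polr2m*, whose product is associated without being a core subunit. Of 27 GTFs and TFIID TAFs together, 2 were lower and 9 higher, with a median of 0.71. With *Twistnb* and *Cd3eap* added, 14 of 31 polymerase subunits were lower and 1 higher, and the median was −0.58. That total still leaves out *Crcp*, a RNA polymerase III subunit also outside the symbol rule, which fell past 2-fold (−1.33). The classes within each group were uneven: 6 of 13 GTFs stood below GV and 7 above, 4 of 10 subunits of RNA polymerase III alone stood above GV, and 25% of those of RNA polymerase II alone passed 2-fold lower, near the background. No test of a difference between classes was made.

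Among the shared subunits, 5 of 7 fell past 2-fold in TubA-20. *Polr1d*, which RNA polymerases I and III share, was at 225 FPKM in GV, 195 in TubA-10, 119 in MII and 67.1 in TubA-20 (log2 change −1.73 in TubA-20). Its partner *Polr1c* was at 23.9, 16.5, 11.5 and 8.91 FPKM in the same order of libraries (−1.33). *Polr2l*, common to all 3 polymerases, was at 59.8 FPKM in GV, 53.3 in TubA-10, 34.2 in MII and 21.5 in TubA-20 (−1.44). TubA-20 was the lowest library for each of these 3 genes. The exceptions were *Polr2f*, with 292 FPKM (GV), 320 (TubA-10), 346 (MII) and 583 FPKM (TubA-20), just short of the 2-fold limit, and *Polr2h*, with 34.3, 24, 18.2 and 32.8 FPKM in the same order (−0.06). MII was the lowest library for *Polr2h*, and TubA-20 the highest for *Polr2f*. The 5 subunits common to all 3 enzymes were furthest apart in TubA-20, with a standard deviation across genes of log2(FPKM + 1) of 1.43 for GV, 1.38 for TubA-10, 1.58 for MII and 1.99 for TubA-20.

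Of the subunits that belong to 1 enzyme, those of RNA polymerase I among the members fell in 3 of 4 cases in TubA-20, *Znrd1*, *Polr1e* (5.03 FPKM, −1.85) and *Polr1b* (−1.11). The exception was the catalytic *Polr1a*, with 4.91 FPKM (GV), 4.61 (TubA-10), 5.44 (MII) and 4.02 FPKM (TubA-20, −0.24). Outside the symbol rule, *Cd3eap* rose (1.07) and *Twistnb* was within 2-fold (8.93 FPKM in GV and 13.6 FPKM in TubA-20, 0.55), so that with both 3 of 6 fell and 1 rose, and the median moved from −1.48 to −0.67. RNA polymerase III subunits among the members fell in 4 of 10 cases, among them *Polr3a* (16 FPKM, −1.40), *Polr3c* (−1.58) and *Polr3k*. Outside the rule, *Crcp* fell as well (−1.33). In the order GV, TubA-10, TubA-20 and MII, *Polr3c* was at 11.8, 7.97, 3.3 and 5.72 FPKM. TubA-20 was its lowest library. *Polr3d* was at 9.37, 12.8, 17 and 13.9 FPKM and stood highest in TubA-20 (0.79). For RNA polymerase II, 2 of 8 fell, *Polr2i* and *Polr2g*, which encodes a subunit of the dissociable stalk (747 and 372 FPKM). *Polr2g* barely passed the limit, at 0.499 of its GV value on the FPKM + 1 scale, and was short of it under equal *Gapdh* (log2 change −0.93). Its partner in the stalk, *Polr2d*, went from 1143 FPKM in GV to 809 FPKM (−0.50). *Polr2c* and *Polr2j*, which take part in the assembly of the enzyme, were above GV within 2-fold (0.79 and 0.61). *Polr2c* was at 395 FPKM in GV, 404 in TubA-10, 681 in TubA-20 and 533 in MII, and *Polr2j*, with the highest sum over the libraries in its class, at 1012, 1110, 1550 and 1325 FPKM. *Polr2m*, whose product binds RNA polymerase II without being a core subunit, was at 3.26, 5.13, 2.77 and 5.91 FPKM, so that both GV and TubA-20 were low.

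TFIID TAFs showed the reverse order. Of these 14, 13 were lowest in GV, where 43.9% of all genes tested were lowest, and 10 of 14 were highest in TubA-20, where 37.5% of all genes were highest. Past 2-fold in TubA-20, 6 rose and 1 fell. *Taf4* was at 22.8 FPKM in GV, 37.4 in TubA-10, 48.5 in MII and 62.9 in TubA-20 (log2 change 1.42 in TubA-20). *Taf10* (chr7:105739393-105744361, minus strand), shared by TFIID and SAGA, was at 26.1, 43.5, 53.1 and 67.2 FPKM in the same order of libraries (1.33). *Taf13*, a histone-fold subunit, was at 20.1, 25.5, 29.8 and 45 FPKM (1.13). In all 3 the libraries stood in the order GV, TubA-10, MII and TubA-20. *Taf9* (1.33, uncertain as above), *Taf3* (70.8 FPKM in GV, 104 in TubA-10, 131 in MII and 151 in TubA-20, 1.08) and *Taf6* (15.4 and 31.9 FPKM, 1.01) also rose. *Taf3*, *Taf6* and *Taf13* were within 2-fold when the median gene was set to 0 (0.89, 0.82 and 0.94).

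*Taf12* was the TFIID TAF that fell, from 138 FPKM in GV to 110 in TubA-10, 82.6 in MII and 67.8 in TubA-20 (−1.01 in TubA-20, and −0.94 under equal *Gapdh*). It is a histone-fold partner of *Taf4*, which moved the other way. Of the remaining TAF genes, *Taf5l* (1.48 FPKM in TubA-20, −1.99) and *Taf6l* (20.1 FPKM, −1.60) fell, while their TFIID paralogues *Taf5* (42.3 and 69.9 FPKM, 0.71) and *Taf6* stood above GV. The 4 TAFs of the RNA polymerase I selectivity factor were within 2-fold in every comparison, except that with a pseudocount of 0.1 FPKM *Taf1c* passed 2-fold lower in TubA-10 (−1.18) and TubA-20 (−1.98) against GV and in TubA-20 against MII (−1.03). *Taf1a* was the most abundant of them, at 293 FPKM in GV, 258 in TubA-10, 251 in TubA-20 and 244 in MII. In that order, *Taf1b* was at 32.7, 28.4, 28 and 31.8 FPKM, *Taf1d* at 26.1, 22.3, 29.5 and 21.3 FPKM, and *Taf1c*, close to the minimum, at 1.31, 0.525, 0.259 and 0.63 FPKM. The libraries of *Taf1b* and *Taf1d* lay close together, and *Taf1c* was highest in GV.

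Among 13 GTFs, 3 rose and 1 fell past 2-fold in TubA-20. The rises were *Gtf2a1* (1.81), its TFIIA partner *Gtf2a2* (135 FPKM in GV, 194 in TubA-10, 225 in MII and 327 in TubA-20, 1.27) and *Gtf2h1*, a core subunit of TFIIH (25.8, 46.6, 40.6 and 66.5 FPKM in the same order, 1.33). The fall was that of *Gtf2f1*. TFIIH was split, since the small subunit *Gtf2h5* went from 158 FPKM in GV to 78.7 in TubA-20, just short of the limit (0.502 of its GV value on the FPKM + 1 scale). *Gtf2b*, the single subunit of TFIIB, was abundant throughout, at 377 FPKM in GV, 549 in TubA-10, 503 in TubA-20 and 464 in MII. *Gtf2e2*, of TFIIE, was at 63.6, 79.4, 52.5 and 70.9 FPKM in the same order, the lowest GTF of TubA-20 relative to MII (−0.43). *Gtf2ird1*, the member of the TFII-I family that reached the minimum, was at 49.9, 86.6, 54.7 and 65.3 FPKM, highest in TubA-10. Of those under the minimum, *Gtf2ird2* was listed at 0 in all cultured libraries and *Taf7l* in TubA-20 and MII.

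The third comparison sets oocytes cultured with TubA against MII, after the same time in culture but, at the higher dose, not at the same meiotic stage. The stage that TubA-10 oocytes reached is not given separately. The paper reports that oocytes given the higher dose were arrested before MII, whereas MII oocytes were kept only with a polar body. Drug and stage therefore differ together between the higher dose and MII, and the part of each was not tested. In TubA-10, 2 members were higher and 0 lower than in MII, where the background was 1.04% higher and 0.257% lower. These were *Znrd1* (log2 change 1.18) and *Taf6l* (1.07). In TubA-20, 2 members were lower and 0 higher, where the background was 4.92% lower and 0.661% higher. These were *Znrd1* (−1.89) and *Polr2k* (−1.41), and with a pseudocount of 0.1 FPKM 5 members passed the limit. Of the 29 polymerase subunits, 22 were below MII in TubA-20, with a median of −0.33, where 50.1% of all genes tested were below MII, with a median of 0.00. GTFs had a median of 0.15 against MII, which was −0.01 under equal *Gapdh*, and TFIID TAFs one of 0.22. With equal FPKM sums these medians were 0.01 (GTFs) and 0.08 (TFIID TAFs).

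*Znrd1* thus lay above MII at the lower dose and below it at the higher. The same order, TubA-10 above and TubA-20 below MII, was found in 16 of 29 polymerase subunits (55.2%), 23 of 64 members (35.9%) and, as background, 30.6% of all genes tested. Of the TFIID TAFs, 2 of 14 had this order and 8 had the opposite one, which 29.2% of all genes tested had. Over all members, 30 were lowest in GV, 2 in TubA-10, 26 in TubA-20 and 6 in MII, where the background was 43.9%, 7.71%, 36.5% and 11.6%. In 26 of 29 polymerase subunits the change from GV was closer to 0 in TubA-10 than in MII (89.7%, and 71.7% of all genes tested). The same MII and GV libraries serve in each such count.

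**Figure D2:**
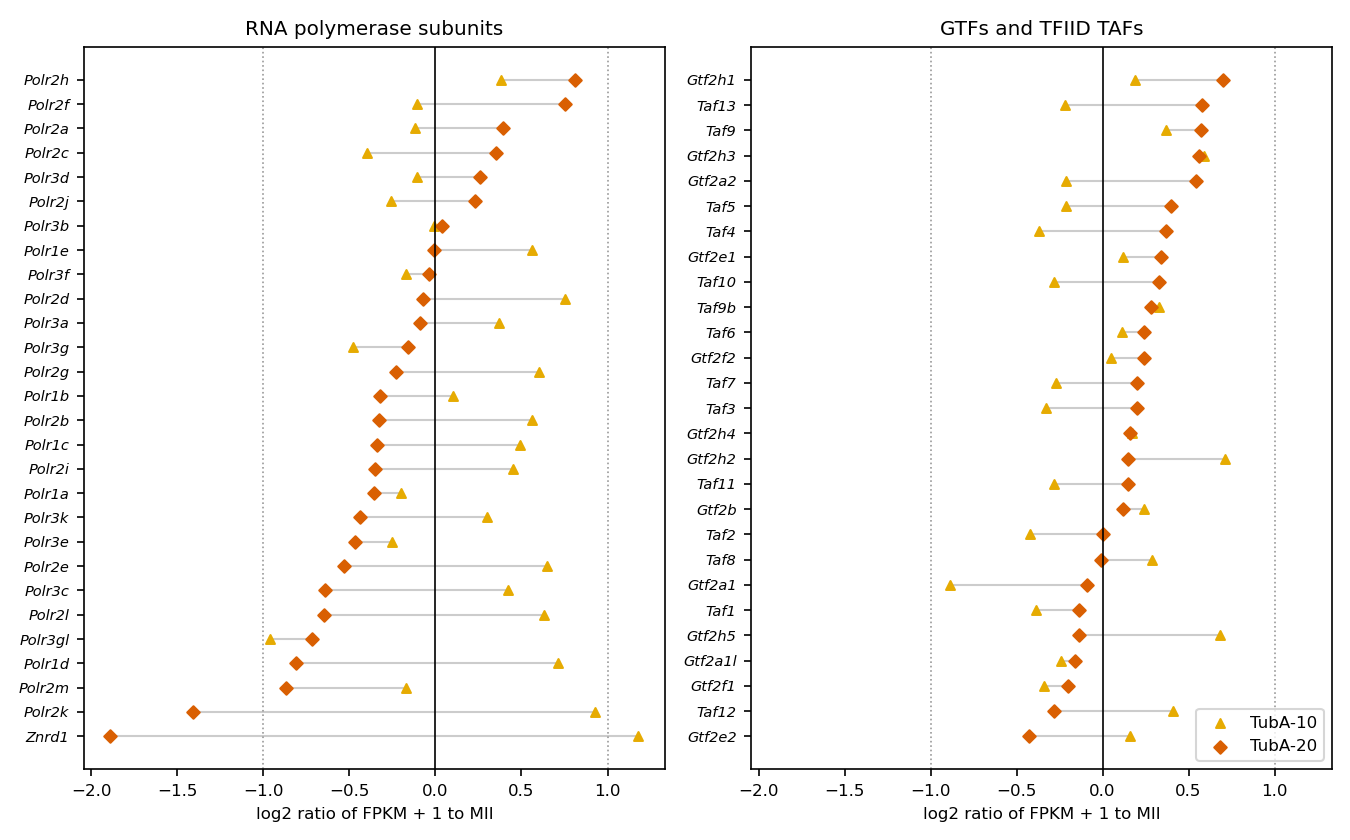
log2 ratio of FPKM + 1 to MII in TubA-10 (triangles) and TubA-20 (diamonds) for polymerase subunits (left) and GTFs and TFIID TAFs (right), ordered by TubA-20, with the 2-fold limits dotted. *Znrd1* and *Polr2k* are the 2 genes left of the lower limit in TubA-20, and both stand right of 0 in TubA-10.

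Between the doses, TubA-20 had 9 members lower and 0 higher, where the background was 11.1% lower and 1.33% higher. The 9 became 14 under equal *Gapdh*. Among them were *Znrd1* (log2 change −3.07), *Polr2k* (−2.34), *Polr1d* (−1.52), *Taf5l* (−1.44), *Polr2l* (−1.27), *Polr2e* (−1.17), *Taf6l* (−1.14) and *Polr3c* (−1.06). Of the 9, 7 are polymerase subunits, and 4 are shared ones. No GTF or TFIID TAF was among them.

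Features that the choice of members did not use were then compared. Coding length was taken from the principal transcript of each gene in GENCODE M21 (GRCm38). Of 23 members with up to 250 codons, 10 fell past 2-fold in TubA-20 against GV (43.5%), and of the 15 polymerase subunits among them 9 did (60%). Over all genes tested the share was 37.1% up to 250 codons, 26.6% over 250 to 500 and 13.8% above 500. Among members the shares in the longer groups were 10.5% of 19 and 27.3% of 22. The shortest members fell most often, as the shortest genes did among all genes tested. Among polymerase subunits the shares in the longer groups were 33.3% of 6 and 37.5% of 8. Their share was above that of all genes up to 250 codons and above 500. In the group between it rested on 2 of 6 genes, near the 26.6% of all genes. These groups leave out *Twistnb* and *Cd3eap*, which did not fall, and *Crcp*, which did. The rank correlation of coding length with the log2 change was 0.14 over 64 members and 0.24 over 10845 genes, as a description across genes that share their libraries. The TFIID TAFs and GTFs did not follow it evenly: *Taf13*, with 124 residues, and *Gtf2a2*, with 109, rose, whereas *Znrd1*, with 123, fell.

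**Figure D3:**
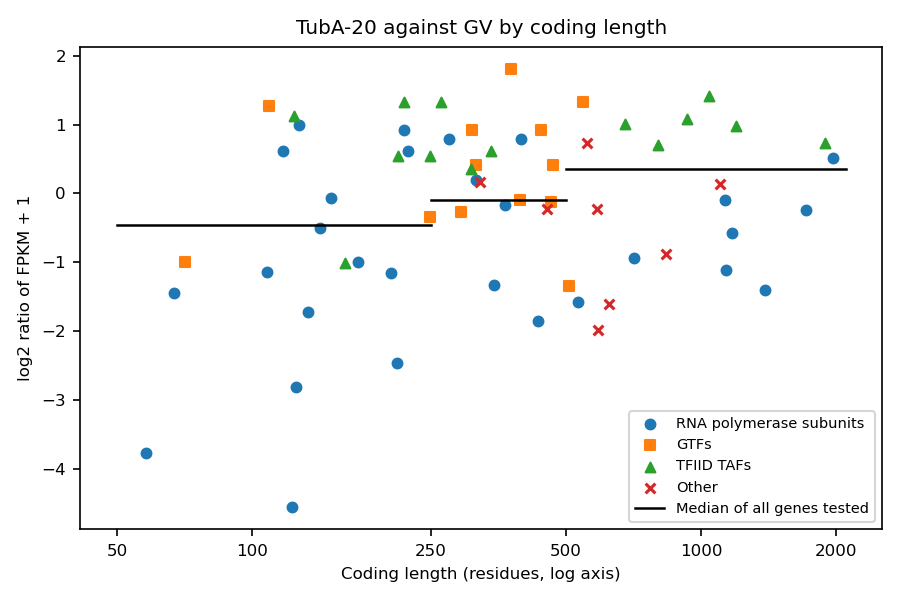
log2 ratio of FPKM + 1 in TubA-20 against GV over coding length in residues (log axis), 1 point per gene, with horizontal lines at the median of all genes tested up to 250, over 250 to 500 and above 500 residues. Polymerase subunits of up to 250 residues reach down to −4.56, while TFIID TAFs of the same length lie mostly above 0.

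The 3′ end of the annotated transcripts was searched for the letters TTTTAT or TTTTAAT, the DNA form of elements that bind CPEB and direct cytoplasmic polyadenylation in oocytes. The transcript strand alone was read, over the last 150 bases, in genes with a 3′ untranslated region of at least 50 bases. The letters were present in 17 of 60 members (28.3%) and in 25.1% of all genes tested. Of the 9 members that rose past 2-fold in TubA-20 against GV, 4 held them (44.4%), and of 15 that fell, 2 did (13.3%). The shares over all genes were 39% of those that rose and 11.6% of those that fell, so the shares stood in the same order among the members and among all genes. The median log2 change was 0.71 in 17 members with the letters and −0.09 in 43 without, against 0.55 and −0.12 over all genes. Windows of 30 bases, with the element in capitals, are shown for the members that rose and held it.
Gtf2a1: ataataaagataTTTTATttattgccagca
Gtf2a2: aatgtaacttttTTTTAATgacaaatcaaa
Taf4: taattgctattgTTTTATataggattgaaa
Taf13: aatcagggcctgTTTTATtccgaaaagtgt

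These windows lie at chr12:91555262-91555291 (minus strand, *Gtf2a1*), chr9:70022660-70022689 (plus, *Gtf2a2*), chr2:179912190-179912219 (minus, *Taf4*) and chr3:108583109-108583138 (plus, *Taf13*), all in the 3′ untranslated region of the last exon on GRCm38. The 2 members that fell and yet held the letters are shown for contrast, *Polr2k* at chr15:36176899-36176928 (plus) and *Polr1c* at chr17:46243983-46244012 (minus). A match describes these letters only, and poly(A) tail length was not tested.
Polr2k: aatacaattgtaTTTTAATactttgtataa
Polr1c: ccagtcaatacaTTTTATtaaatgtgccac

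*Polr2e* and *Polr2l*, which also fell, held none of these letters in that stretch. Their windows show in capitals the polyadenylation signal (AATAAA or ATTAAA, searched in the last 40 bases), at chr10:80035955-80035984 and chr7:141471860-141471889, both on the minus strand.
Polr2e: actctcctgagaATTAAAggatactttgat
Polr2l: tgtacttacatatattaataAATAAAtctt

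Genes of the same machinery outside the symbol rule comprised 96 genes in 7 lists, of which 92 were tested. In TubA-20 against GV 20 fell and 11 rose past 2-fold, with a median of 0.03, and in MII 16 fell and 4 rose (median −0.08). These counts were near or below the background of 23.6% lower and 15.3% higher in TubA-20 and of 16.8% lower and 6.14% higher in MII. By list, the falls in TubA-20 were in RNA polymerase III factors (5 of 15, and 0 rose), the other TFIIH subunits (2 of 5, and 0 rose), the elongation factors (6 of 23, and 2 rose), Mediator (6 of 32, and 7 rose) and the assembly factors and phosphatases of the RNA polymerase II tail (1 of 10, and 0 rose). The RNA polymerase I factors had 1 rise and 0 falls among 4, and the TATA-binding protein family 1 rise and 0 falls among 3.

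The gene with the largest fall and the gene with the largest rise of each list are given from GV to TubA-20. *Med29*, a Mediator subunit, fell from 86.6 to 5.48 FPKM (log2 change −3.76), while *Med30*, of the same complex, rose from 370 to 1024 FPKM (1.47). *Gpn1*, a GTPase needed for nuclear import of RNA polymerase II, fell from 32.3 to 2.32 FPKM (−3.32), and *Nelfe*, of the negative elongation factor, from 71.6 to 6.87 FPKM (−3.21). *Gtf3c6*, of TFIIIC, fell from 29 to 2.92 FPKM (−2.94), and *Ercc3*, the TFIIH translocase, from 19.6 to 4.4 FPKM (−1.93). The largest rises of the other lists that passed 2-fold were those of *Tbpl1*, a paralogue of the TATA-binding protein (6.3 to 22.7 FPKM, 1.70), *Rtf1*, of the elongation complex PAF1 (21.9 to 55.4 FPKM, 1.30), and *Cd3eap*, of RNA polymerase I (4.26 to 10 FPKM, 1.07). *Tbp* itself was within 2-fold, with 44.9 and 37.4 FPKM (−0.26). *Rrn3* (−0.86), *Snapc1* (0.68), *Ctdsp2* (0.80) and *Mnat1* (0.20), the other ends of their lists, were within 2-fold as well.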

How the data were processed

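The authors deposited 1 table of FPKM values (fragments scaled to transcript length and library depth), with 1 column for each of 4 libraries. Per the labels, STAR 2.5.0, Cufflinks and Cuffdiff 2.2.1 and the build mm10 were used. RNA extraction differs between the labels (TRIzol) and the methods (PicoPure). Fragment counts are not given, so no interval or count test was possible.

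Of 21959 entries, 21794 matched the gene table by identifier. Ratios were taken as log2 of FPKM + 1, a scale that understates changes of low genes, for genes at 1 FPKM or more in at least 1 library, and called past 2-fold. Any member could be named. The most abundant of each class, its largest falls and rises against GV and MII, members past 2-fold between treated and MII oocytes, and those at 0 or under the minimum were named by rule, as were the largest fall and rise of each pathway list. Members and lists were chosen with earlier results of these data known, and some genes matching the symbols are not reported here. Sequences and lengths came from GENCODE M21. The fold counting alone was checked on simulated libraries in which 200 genes were changed 4-fold. The simulated noise was small by design, so this check says nothing about variation between real libraries. Python 3.11.15, numpy 2.4.6, pandas 2.3.3 and scipy 1.17.1 were used. Alternatives were 2 pseudocounts, 2 filters and 3 scalings.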

Additional observations from a re-analysis of the deposited data

Results flagged for a closer look

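From MII, 6 members moved in opposite directions at the 2 doses, above it in TubA-10 and below it in TubA-20 by at least 0.5 each on the log2 scale. As each condition was 1 library, the difference was not tested. The distance between the doses on the log2 scale was 3.07 for *Znrd1*, 2.34 for *Polr2k*, 1.52 for *Polr1d*, 1.44 for *Taf5l*, 1.27 for *Polr2l* and 1.17 for *Polr2e*. Such opposite moves were found in 472 of all genes tested (4.33%).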

How the results depend on the processing

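No paired analysis was possible because each condition was 1 library, and no library could be left out for the same reason. A recomputed count was taken as unchanged within a ratio of 1.5, and a median within 0.25 of its main value without a change of sign. Of 324 recomputed counts and medians, 284 stayed within these tolerances, 34 moved past them and 6 changed sign. With a minimum of 5 FPKM, the RNA polymerase I median against GV was −1.85 in TubA-20 and −1.84 in MII, the RNA polymerase III median −1.14 and the GTF median 0.16 in TubA-20, and 1 member was lowest in TubA-10. With equal FPKM sums, 7 members were higher in MII than in GV, 1 was lower in TubA-10 than in MII, 1 was lowest in TubA-10, and the RNA polymerase II median in MII turned to 0.05. With equal *Gapdh*, 8 members were higher in MII and 6 in TubA-10 than in GV, 4 were lower in TubA-20 than in MII, 14 were lower in TubA-20 than in TubA-10, 0 were lowest in TubA-10, 9 pathway genes were higher in MII, the members' median in TubA-10 was 0.37, and the medians of RNA polymerase II (0.13) and III (0.04) in MII and of GTFs in TubA-20 against MII (−0.01) turned. With the median gene at 0, 2 members were higher in MII and 0 in TubA-10, 9 were lowest in TubA-10, 1 pathway gene was higher in MII, and the members' median in TubA-10 turned to −0.03. Without a filter their median in MII turned to −0.04. With a pseudocount of 0.1 FPKM, and of 0.01 FPKM in second place, the RNA polymerase I median against GV was −2.02 and −2.13 in TubA-20 and −1.65 and −1.71 in MII, 7 and 7 members were higher in MII, 4 and 5 higher in TubA-10, 1 and 1 lower in TubA-10 than in MII, and 5 and 5 lower in TubA-20 than in MII. At 0.01 FPKM the RNA polymerase I median in TubA-20 against MII was −0.63. With *Twistnb* and *Cd3eap* counted as subunits, chosen after seeing the data, the RNA polymerase I median against GV was −0.67 in TubA-20 and −0.33 in MII. Of 308 values for single genes, 299 stayed on their side of the limit and 9 came within it, with *Taf6* just under it with equal FPKM sums and *Gtf2f1* at −0.93 in MII under equal *Gapdh* besides those given above. The cause was not tested.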
